A study of Mus musculus with 8 samples.

Results

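Hippo pathway mRNAs were examined in endothelial cells of mouse lung tumors with and without deletion of 1 Foxf1 allele. The set held 10 genes chosen by symbol, namely the kinases Stk4, Stk3, Lats1 and Lats2, the adaptor Sav1, the transcriptional coactivators Yap1 and Wwtr1, their DNA-binding partner Tead1, and Amotl2 and Ankrd1, which are target genes of that complex. All 10 were found among the 33641 genes listed, and all 10 were among the 14964 genes that reached a TPM (the share of all transcripts, corrected for transcript length) of 1 in at least 4 of the 8 libraries.

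The study asked what FOXF1, a forkhead transcription factor of lung endothelium, does in tumor vessels. Lewis lung carcinoma (LLC) cells, a mouse lung cancer line, were injected into the left lung of C57Bl/6 mice, and tumors were dissected at day 21. CD45-CD31+ cells, meaning cells without the leukocyte marker and with the endothelial marker, were sorted from the tumors by FACS, and 4 control (C1 to C4) and 4 endFoxf1+/- (H1 to H4) libraries were sequenced. The endFoxf1+/- mice carried Pdgfb-iCreER and a Foxf1 fl/+ allele, so that tamoxifen, given by gavage as 3 mg at an age of 6 to 8 weeks, removed exon 1 of 1 Foxf1 allele in cells that express Pdgfb. The labels call the other group only control. The study describes tamoxifen-treated littermates with 1 of the 2 transgenes, and for the tumor model it also names wild-type mice, so the exact control genotype is not known here. Because the transgene is driven by Pdgfb, other cells in the sort, and endothelial cells in which recombination failed, kept both alleles.

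Hippo signaling is a kinase cascade that limits organ size. The MST kinases, encoded by Stk4 (MST1) and Stk3 (MST2), act with the scaffold SAV1 to activate the LATS kinases, and LATS phosphorylates the coactivators YAP and TAZ (Wwtr1), which keeps them out of the nucleus. When the cascade is inactive, YAP and TAZ bind TEAD factors and switch on target genes, and in endothelium this branch is known for its part in vessel sprouting and barrier maturation. The activity of the cascade is set by phosphorylation and protein location, neither of which mRNA levels report.

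The libraries differed in ways that bear on every result. Foxf1, the deleted gene, had a TPM of 213, 285, 296 and 331 in the controls and 177, 203, 14.04 and 105 in H1 to H4, so the groups did not overlap (log2 fold change -1.68, exact permutation p = 0.0286). Relative to the endothelial markers described next, the groups overlapped and the log2 difference was -0.46 (exact permutation p = 0.0571, limma adjusted p = 0.553). The geometric mean of 20 endothelial markers lay between 84.6% and 108% of the control mean in the controls, at 104% in H1 and 106% in H2, but at 5.37% in H3 and 53.7% in H4. Pecam1, which encodes CD31, had a TPM of 77.5 in H3 and of 1061 to 1505 in the controls. The 13 myeloid markers tested were all higher on average in endFoxf1+/- libraries. The myeloid list summed to a TPM of 2776, 2110, 10337 and 4876 in H1 to H4 against 1527 to 5270 in the controls, so only H3 was above the control range. The fibroblast and pericyte markers summed to a TPM of 697, 452, 1367 and 610 in H1 to H4 against 355 to 465 in the controls, with 7 of 14 higher and 7 lower. The lymphocyte markers summed to 136 in H3 and 42.7 in H4 against 56.1 to 68.2. The 10 proliferation genes, all higher on average, summed to 334, 304, 550 and 225 in H1 to H4 against 213 to 241, so H1 and H2 also differed from the controls. Epithelial markers, 11 of 12 lower on average, summed to 11012, 2624, 1638 and 27157 in H1 to H4 against 7004 to 32855. Erythroid and platelet markers, 10 of 10 lower on average, summed to 712, 708, 432 and 1028 in H1 to H4 against 1061 to 2132, and dissociation stress genes to 1171, 1144, 1222 and 2080 against 1411 to 1844. No gene of these marker lists was at 0 in all libraries. H3 and H4 also stood apart over all genes, with a median correlation of 0.795 and 0.892 with the other libraries, against 0.958 to 0.968 for the rest. In bulk libraries, fewer cells of a type and less RNA per cell cannot be told apart. What part these markers had in the differences given here was not tested, so the differences of the 10 genes and the counts of each list are also given without H3, and where they change further without H3 and H4.

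Because TEAD factors bind DNA beside their target genes and FOXF1 is a forkhead factor, upstream sequences were read first. The 250 bases before the RefSeq transcript start (GRCm38.p6) were read for 8 of the 10 genes, leaving Stk3 and Tead1. They were searched on both strands for the core of the TEAD binding motif, GGAATG, whose reverse complement is CATTCC, and for the forkhead core TAAACA, whose reverse complement is TGTTTA. The TEAD core was present before 5 of the 8 genes, namely Amotl2, Ankrd1, Yap1, Wwtr1 and Sav1, while 12.6% of 32851 RefSeq promoters of the same length (14.4% of 27025 genes) held it. The forkhead core was present before 0 of the 8 genes and in 12% of all promoters. Such a match is a run of letters and not a shown binding site. The sequences are given for Stk4, which held neither core, for the targets Amotl2 and Ankrd1, and for the coactivator gene Wwtr1, with each TEAD core in capitals.
Stk4 chr2:164073888-164074137 (+): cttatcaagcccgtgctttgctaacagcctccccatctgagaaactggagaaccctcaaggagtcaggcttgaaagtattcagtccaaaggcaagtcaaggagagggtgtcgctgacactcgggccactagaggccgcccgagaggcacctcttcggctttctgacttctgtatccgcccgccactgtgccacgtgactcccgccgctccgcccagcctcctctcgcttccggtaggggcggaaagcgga
Amotl2 chr9:102717554-102717803 (+): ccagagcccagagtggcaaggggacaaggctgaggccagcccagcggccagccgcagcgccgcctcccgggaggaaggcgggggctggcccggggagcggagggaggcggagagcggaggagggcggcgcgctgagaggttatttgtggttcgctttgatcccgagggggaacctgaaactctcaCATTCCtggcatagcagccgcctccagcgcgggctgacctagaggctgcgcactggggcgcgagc
Ankrd1 chr19:36119845-36120094 (-): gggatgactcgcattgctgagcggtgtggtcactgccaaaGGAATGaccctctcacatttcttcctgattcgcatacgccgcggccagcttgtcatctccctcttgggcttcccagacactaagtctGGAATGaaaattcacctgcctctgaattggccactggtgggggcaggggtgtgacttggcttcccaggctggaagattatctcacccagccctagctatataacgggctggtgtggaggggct
Wwtr1 chr3:57575911-57576160 (-): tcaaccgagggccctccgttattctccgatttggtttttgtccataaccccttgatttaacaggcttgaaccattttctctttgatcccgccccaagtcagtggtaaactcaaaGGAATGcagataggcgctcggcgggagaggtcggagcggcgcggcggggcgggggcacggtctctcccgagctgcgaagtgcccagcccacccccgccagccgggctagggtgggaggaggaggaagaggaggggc
The core began 65 bases before the start of Amotl2, 210 and 123 bases before that of Ankrd1, and 136 bases before this start of Wwtr1. In Yap1 it began 141 bases and in Sav1 106 bases before the start.

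In the control libraries the upstream kinases, the coactivators and Amotl2 were all well expressed. The epithelial markers summed to 7004 to 32855 TPM in these libraries and the endothelial markers to 12778 to 16420. These levels are therefore those of the sorted sample and not of endothelial cells alone. The control mean TPM was 85.0 ± 12.7 (SD, n = 4) for Stk4, higher than in 88.7% of the genes tested, and it was followed by Lats2 (81.6 ± 5.63), Sav1 (76.2 ± 12.2), Amotl2 (66.5 ± 5.71), Wwtr1 (58.1 ± 8.53) and Yap1 (40.9 ± 8.45). Each of these 6 genes overlapped its neighbor in this order, so their order is not set by 4 libraries. Stk3 (26.9 ± 3.43), Lats1 (14.03 ± 0.882), Tead1 (8.65 ± 1.14) and Ankrd1 (1.71 ± 0.506) followed without overlap between neighbors. Thus, Stk4 was the more abundant MST mRNA, Lats2 the more abundant LATS mRNA and Wwtr1 the more abundant coactivator mRNA by mean TPM. Ankrd1, which encodes a nuclear ankyrin repeat protein best known from heart muscle, was the lowest of the 10, above only 9.28% of the genes tested.

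**Figure D1:**
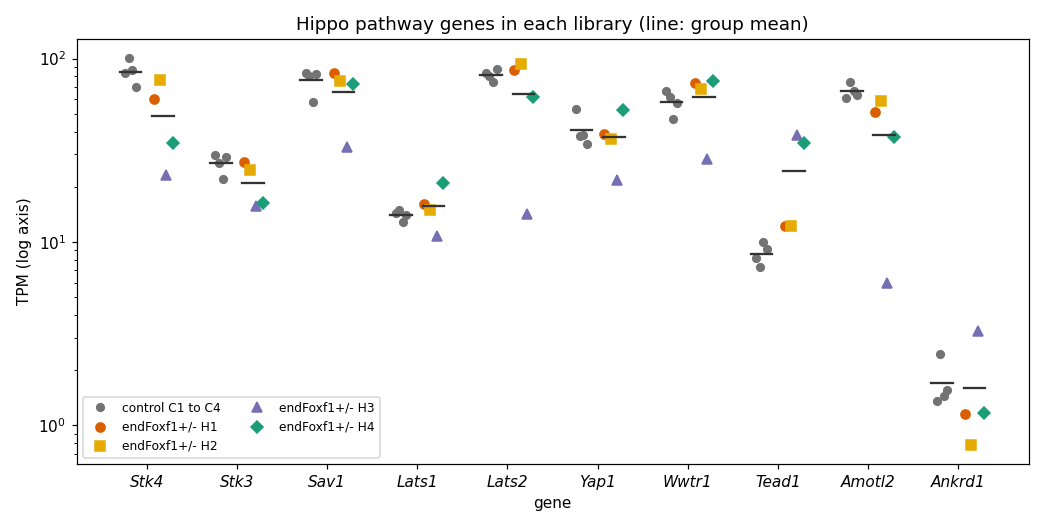
TPM on a log axis of the 10 Hippo pathway genes in each library, with the control libraries in gray, each endFoxf1+/- library in its own color and symbol, and a line at each group mean. The 4 endFoxf1+/- values of Amotl2 sit below the lowest control and the 4 values of Tead1 above the highest, while H3 (triangle) is the lowest endFoxf1+/- library for 8 of the 10 genes and the highest for Tead1 and Ankrd1.

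Of the 10 genes, only Amotl2 and Tead1 had groups that did not overlap, the first lower and the second higher in endFoxf1+/- libraries. In the limma test over all genes, none of the 10 reached an adjusted p of 0.05, and neither did any other gene (0% of 14964 called, smallest adjusted p = 0.305, with 836 genes at an unadjusted p under 0.05). Against this background, 2.31% of all genes tested had non-overlapping groups with lower levels and 2.73% with higher levels. The log2 fold change, on the log2(TPM + 1) scale, was below 0 for 8 of the 10 genes with a median of -0.22, and 68.0% of all genes were below 0 with a median of -0.17. The direction of the set as a whole was therefore close to that of all genes.

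Stk4 (chr2:164070322-164155524, plus strand, in GRCm38 as annotated by GENCODE), the MST1 kinase at the top of the cascade, had a TPM of 83.5, 100.5, 86.4 and 69.6 in the controls and 60.3, 76.2, 23.2 and 34.6 in H1 to H4. H1, H3 and H4 were below the lowest control and H2 was within the control range. The group mean was 48.6 ± 24.1 (SD, n = 4), 57.2% of the control mean, and the log2 fold change was -0.92 ± 0.36 (SE, exact permutation p = 0.0571, limma adjusted p = 0.790). Without H3 it was -0.63 (exact permutation p = 0.114), and without H3 and H4 it was -0.31. Scaling the libraries by their median ratio in place of the TPM total gave -0.73 with no overlap between the groups (exact permutation p = 0.0286). Exons of Stk4, Sav1, Lats2, Yap1 and Tead1 overlap other annotated genes, and whether reads were assigned by strand is not given in the sources used here.

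Stk3 (chr15:34875496-35178921, minus strand) encodes the MST2 kinase. Its TPM was 29.9, 26.9, 22.1 and 28.9 in the controls and 27.2, 24.7, 15.7 and 16.4 in H1 to H4. H1 and H2 lay among the controls and H3 and H4 below them, and the log2 fold change was -0.38 ± 0.25 (exact permutation p = 0.2), -0.25 without H3 and -0.044 without H3 and H4. Within each library, the ratio of Stk4 to Stk3 was 2.80, 3.74, 3.90 and 2.41 in the controls and 2.22, 3.08, 1.48 and 2.11 in H1 to H4. The ratio, which does not depend on scaling of the library, averaged 3.21 ± 0.724 in controls and 2.22 ± 0.660 in endFoxf1+/- libraries. The groups overlapped through H2. The log2 difference of each such ratio was taken from TPM + 1, so it is not wholly free of scaling. For Stk4 to Stk3 it was -0.55 ± 0.27 (exact permutation p = 0.114, 0.343 adjusted over 3 such ratios), -0.37 without H3 and -0.27 without H3 and H4. Thus, a larger difference in Stk4 than in Stk3 was not established.

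Sav1 (chr12:69965012-69987002, minus strand), the scaffold that binds both MST kinases, was at 83.7, 80.6, 58.0 and 82.6 TPM in the controls and 83.2, 75.5, 33.04 and 72.7 in H1 to H4. Only H3 was below the control range, and the log2 difference, -0.27 ± 0.31 (exact permutation p = 0.514), became 0.03 without H3 and 0.070 without H3 and H4.

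The LATS kinases diverged in H3 and H4. Lats1 (chr10:7681214-7716460, plus strand) had a TPM of 14.4, 14.9, 12.8 and 13.97 in the controls and 16.1, 14.97, 10.7 and 21.1 in H1 to H4. H1, H2 and H4 were above every control and H3 was below, and the log2 difference was 0.12 ± 0.25 (exact permutation p = 0.571). Without H3 the groups did not overlap and the value was 0.28 (exact permutation p = 0.0571, the smallest that 4 against 3 libraries allow), and without H3 and H4 it was 0.14. Lats2 (chr14:57689662-57758388, minus strand), which is itself a YAP/TAZ target, had a TPM of 83.9, 80.9, 74.2 and 87.5 in the controls and 86.6, 93.9, 14.2 and 61.4 in H1 to H4. H1 and H2 were above the control mean, while H3 was at 17.4% and H4 at 75.2% of it. The log2 fold change was -0.64 ± 0.52 (exact permutation p = 0.4), and it was -0.04 without H3 and 0.14 without H3 and H4. The ratio of Lats1 to Lats2 lay between 0.160 and 0.184 in the controls and was 0.186 in H1, 0.159 in H2, 0.757 in H3 and 0.344 in H4. The mean ratio was 0.172 ± 0.0101 in controls and 0.362 ± 0.276 in endFoxf1+/- libraries (log2 difference 0.76 ± 0.50, exact permutation p = 0.229), and without H3 and H4 the log2 difference was -0.0036. So the ratio left the control range clearly only in the libraries with low endothelial markers.

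For both coactivators the groups overlapped. Yap1 (chr9:7931999-8004596, minus strand) had a TPM of 53.3, 37.6, 38.4 and 34.3 in the controls and 39.0, 36.6, 21.7 and 52.5 in H1 to H4. Only H3 was outside the control range, and the log2 fold change was -0.17 ± 0.29 (exact permutation p = 0.629). It was 0.062 without H3 and -0.092 without H3 and H4, so its direction was not stable. Wwtr1 (chr3:57455649-57575910, minus strand), which encodes TAZ, had a TPM of 66.7, 61.6, 46.6 and 57.3 in the controls and 73.6, 68.4, 28.3 and 75.3 in H1 to H4. H1, H2 and H4 were above every control, at 127%, 118% and 130% of the control mean, while H3 was at 48.7%. With all libraries the log2 fold change was -0.01 ± 0.33 (exact permutation p = 1), and without H3 it was 0.33 with no overlap (exact permutation p = 0.0571), as it was without H3 and H4 (0.30). The ratio of Yap1 to Wwtr1 was 0.708 ± 0.120 in controls and 0.632 ± 0.119 in endFoxf1+/- libraries, a log2 difference of -0.16 ± 0.18 (exact permutation p = 0.4), or -0.26 without H3. In H1 (0.530) and H2 (0.534) the ratio was below every control, the lowest of which was 0.599, and without H3 and H4 the log2 difference was -0.39 (exact permutation p = 0.133, the smallest that 4 against 2 libraries allow).

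Tead1 (chr7:112679318-112906807, plus strand), a DNA-binding partner of both coactivators, was the gene of the set with the largest log2 fold change upward. Its TPM was 8.18, 7.32, 9.95 and 9.16 in the controls and 12.3, 12.2, 38.3 and 34.7 in H1 to H4. Every endFoxf1+/- library was above every control, at 142% and 141% of the control mean in H1 and H2, 443% in H3 and 401% in H4. The log2 fold change was 1.21 ± 0.40 (exact permutation p = 0.0286, limma adjusted p = 0.790), which was 2.32-fold. Without H3 it was 0.94 and without H3 and H4 it was 0.46, so the size but not the direction rested on these libraries. In H3, Tead1 was the most abundant of the 10 mRNAs, whereas in every control it ranked 9. H3 and H4 were also the libraries with the lowest endothelial markers.

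Amotl2 (chr9:102716672-102733418, plus strand), which encodes an angiomotin family protein that holds YAP at cell junctions and is itself induced by YAP, had the largest log2 fold change downward. Its TPM was 61.3, 74.3, 66.8 and 63.4 in the controls and 51.3, 58.9, 5.96 and 37.2 in H1 to H4. All 4 endFoxf1+/- libraries were below every control, H2 by the smallest margin. The mean was 66.5 ± 5.71 in controls and 38.3 ± 23.4 in endFoxf1+/- libraries, and the log2 fold change was -1.16 ± 0.60 (exact permutation p = 0.0286, limma adjusted p = 0.790). Without H3 the log2 fold change was -0.45 and without H3 and H4 it was -0.27, still with no overlap between the groups. H3 was at 8.97% of the control mean for Amotl2 and at 5.37% for the endothelial markers, and H4 was at 56.0% and 53.7%.

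Ankrd1 (chr19:36111961-36120099, minus strand) was near the lower limit of the genes tested, with a TPM of 1.36, 2.46, 1.45 and 1.57 in the controls and 1.15, 0.786, 3.29 and 1.17 in H1 to H4. H1, H2 and H4 were below every control and H3 above every one. The log2 fold change was -0.13 ± 0.33 (exact permutation p = 0.686), and without H3 it was -0.40 with no overlap (exact permutation p = 0.0571), as it was without H3 and H4 (-0.45). Since no read counts were used here, the counting error of values this low is unknown.

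Leaving out H3 changed which genes were separated. The count of genes with non-overlapping groups went from 2 to 5, with Amotl2 and Ankrd1 lower and Lats1, Wwtr1 and Tead1 higher. Without H3, 2.62% of all genes tested were lower without overlap and 6.46% were higher, and no gene passed the limma test (smallest adjusted p = 0.407). The same 5 genes were separated when H4 was left out as well, where 4.19% of all genes were lower without overlap and 20.3% were higher, so that 3 of 10 higher was then near the share of all genes. Without H3 alone, the number of genes below 0 changed from 8 to 5 of 10, and the median of the 10 from -0.22 to -0.0043, with the median of all genes at 0.01. With H4 left out as well, 5 were below 0, and the medians were 0.013 for the 10 and 0.14 for all genes.

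**Figure D2:**
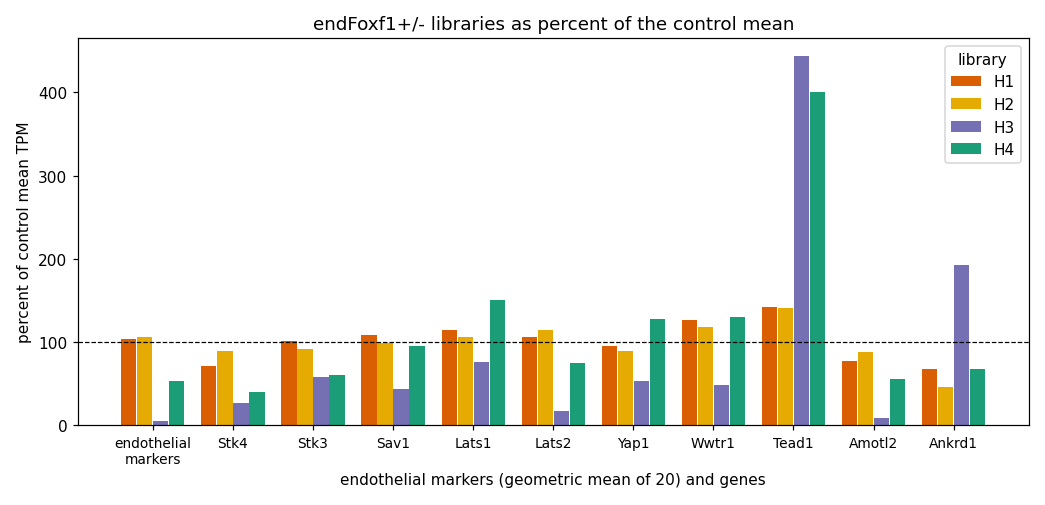
Level of the endothelial markers (geometric mean of 20 genes) and of each of the 10 Hippo pathway genes in the 4 endFoxf1+/- libraries, as percent of the mean of the 4 controls, with the dashed line at 100%. In H3 the endothelial markers are at 5.37% while the genes range from 8.97% for Amotl2 to 443% for Tead1, and in H1 and H2 they lie between 46.0% and 142%.

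The 10 genes were next set against the endothelial transcripts of the same library. In H3, all 10 were at a higher percent of the control mean than the endothelial markers, as were 96.0% of the 14689 genes with a control mean TPM of at least 1. In H4, 9 of the 10 were, the exception being Stk4 at 40.7% against 53.7%, while 73.5% of all genes were. The median of the 10 genes was 50.9% in H3 and 85.3% in H4, and that of all genes was 54.0% and 80.5%. In the libraries with control-like endothelial markers, H1 and H2, 5 and 4 of the 10 genes were above the markers, as were 60.8% and 54.0% of all genes. All 10 genes varied more among the endFoxf1+/- libraries than among the controls, with a coefficient of variation of 27.1% to 71.3% against 6.29% to 29.6%, and the same held for 91.0% of all genes.

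When the mean log2(TPM + 1) of the 20 endothelial markers was subtracted in each library, all 10 genes were higher in endFoxf1+/- libraries, by 0.06 to 2.43 on the log2 scale. This shift was shared, since the marker mean was itself lower by a log2 difference of -1.21 (exact permutation p = 0.314), the median of all genes was 1.04 and that of the 10 genes 0.99. Only Wwtr1 had non-overlapping groups on this scale (1.21 ± 0.74, exact permutation p = 0.0286, limma adjusted p = 0.464), where 10.5% of all genes were higher without overlap and 0.0468% lower. With Pecam1 alone or the 10 most abundant markers as reference, its groups overlapped (exact permutation p = 0.114 and 0.0571), and with the latter Tead1 was separated in its place (exact permutation p = 0.0286). In this fit 1 gene of 14964 was called by limma (0.00668%), Esr1, which is not a Hippo gene. The difference for Tead1 was 2.43 ± 1.05 (exact permutation p = 0.0857) and that for Lats2 was 0.57 ± 0.66 (exact permutation p = 0.0571). Amotl2 was at 0.06 ± 0.66 (exact permutation p = 0.943), so relative to endothelial transcripts its groups were not separated with all libraries. H1 (-3.11) and H2 (-2.95) were nevertheless below every control (lowest -2.88), and the difference turned to -0.21 without H3 and to -0.34 when H4 was left out too. Without H3, 6 of the 10 genes were higher and 4 lower, with Tead1 at 1.18 and Wwtr1 at 0.57. Without H3 and H4, 4 were higher and 6 lower, with Tead1 at 0.39 and Wwtr1 at 0.22.

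Stk4 relative to the endothelial markers was -2.44, -2.13, -2.07 and -2.73 in the controls and -2.88, -2.58, -0.05 and -2.72 in H1 to H4, on the log2 scale. H1 was below every control, H2 and H4 were in the lower part of the control range, and H3 was far above. The mean difference of 0.29 ± 0.74 (exact permutation p = 0.943) thus took its sign from H3, and it was -0.38 without H3 (exact permutation p = 0.171) and -0.39 without H3 and H4.

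**Figure D3:**
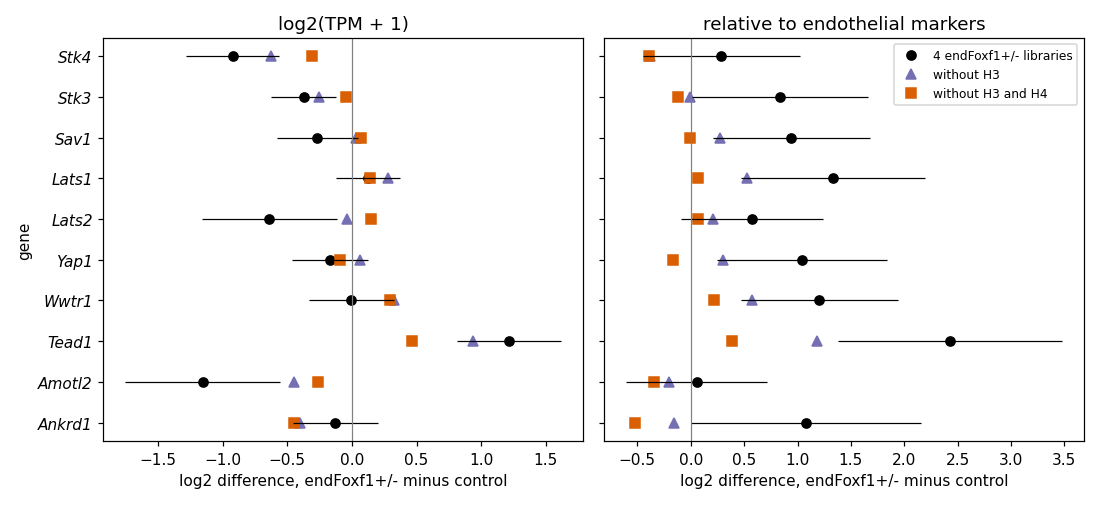
Log2 difference between endFoxf1+/- and control libraries for the 10 genes on the log2(TPM + 1) scale (left) and after subtracting the mean of 20 endothelial markers (right), with all libraries (black, bars show the SE), without H3 (triangles) and without H3 and H4 (squares). On the left Stk4, Stk3, Amotl2 and Ankrd1 stay below 0 and Lats1 and Tead1 above 0 in all 3 settings, and on the right the black points lie above 0 for all 10 genes while 6 of the 10 squares lie below 0.

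The wider pathway was described with 4 further gene lists. Of 34 kinases, adaptors and upstream regulators, 11 had a log2 fold change above 0 and 23 below, with a median of -0.19 beside -0.17 for all genes, and none was called by limma. The groups did not overlap for 2 of the 34, both higher, where 2.73% of all genes were. Mob1a, a LATS coactivator, was at 45.6 to 57.0 TPM in controls and 59.5 to 67.9 in endFoxf1+/- libraries (log2 fold change 0.25, exact permutation p = 0.0286). H3, at 59.5, was the lowest endFoxf1+/- library but was above every control. Amot, another angiomotin, was at 4.13 to 4.96 and 5.27 to 10.7 TPM (0.60, exact permutation p = 0.0286), the opposite direction to Amotl2. Among the values furthest from 0 were those of the kinase genes Tnik (-0.997, exact permutation p = 0.257) and Taok2 (-0.98, exact permutation p = 0.0571). In both genes H3 stood far below the rest, at 6.16% and 11.7% of the control mean, beside 5.37% for its endothelial markers. Without H3, 20 of the 34 genes were above 0, and without H3 and H4 22 were, with a median of 0.15 beside 0.14 for all genes. The count without overlap was then 3 and 7, all higher, where 6.46% and 20.3% of all genes were.

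Of 12 subunits of STRIPAK, a phosphatase complex that opposes the MST kinases, 2 were above 0 and 10 below, with a median of -0.22 and no gene without overlap. Strn4 (-0.68) and Sike1 (-0.38) were among those furthest from 0, with exact permutation p-values of 0.371 and 0.343. Without H3, 7 of the 12 were above 0, and without H3 and H4 11 were. The list median went from -0.22 to 0.10 and 0.16, beside that of all genes at -0.17, 0.01 and 0.14. In these 2 settings 1 and 2 of the 12 genes were higher without overlap, where 6.46% and 20.3% of all genes were. Among the other nuclear partners of YAP and TAZ, 4 of 7 were tested, and Vgll2 was listed at 0 in all libraries. Of the other TEAD genes, Tead2 was at 0.23, Tead3 at -0.28 and Tead4 at -0.35, with overlapping groups for each (exact permutation p = 0.229, 0.2 and 0.771). Of the 4 genes tested, 1 was above 0 with all libraries and 3 were without H3, while the median of all genes turned from -0.17 to 0.01. Without H3 and H4, 3 of the 4 were again above 0. There the groups of Tead3 did not overlap, with lower levels, where 4.19% of all genes were lower without overlap. Tead4 and Tead2 had higher control means than Tead1, at 35.6 and 24.5 TPM.

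Target genes of YAP and TAZ lay on both sides of 0. Of 22 tested, which include Amotl2, Lats2 and Ankrd1, 11 were above 0 and 11 below, with a median of 0.04 and none called by limma. Axl, a receptor tyrosine kinase, had a TPM of 7.01, 6.05, 5.57 and 5.25 in the controls and 10.03, 10.1, 75.6 and 21.0 in H1 to H4, with a log2 difference of 1.62 ± 0.56 (exact permutation p = 0.0286). Its groups did not overlap, and H3 was by far the highest. H3 also had the highest myeloid, fibroblast and pericyte, lymphocyte and proliferation sums and the lowest endothelial markers, and their part was not tested. Nt5e, the ecto-nucleotidase CD73, was at 2.21 to 2.61 TPM in controls and 2.83 to 7.14 in endFoxf1+/- libraries without overlap (0.56, exact permutation p = 0.0286). Igfbp3, an IGF-binding protein, was at 15.3 to 46.4 TPM in controls and 118, 57.3, 13.8 and 174 in H1 to H4, so that only H3 was not above the controls (1.16, exact permutation p = 0.229). Crim1, a transmembrane BMP-binding protein, was at 28.1 to 41.2 TPM in controls and 35.0, 31.1, 3.85 and 29.1 in H1 to H4, with only H3 outside the control range (-0.84, exact permutation p = 0.171). The groups overlapped for the classical targets Ctgf and Cyr61, which encode secreted matrix-binding proteins. Ctgf was at 53.9, 59.2, 58.7 and 65.4 TPM in controls and 84.1, 38.5, 12.6 and 77.2 in H1 to H4. Cyr61 was at 60.7, 103, 80.5 and 54.9 TPM in controls and 71.0, 50.4, 45.5 and 125 in H1 to H4. Both genes had endFoxf1+/- libraries on either side of the controls, with log2 fold changes of -0.47 and -0.11 (exact permutation p = 0.6 and 0.8), and they were named after their values were seen. Without H3, 14 of the 22 targets were above 0, with a median of 0.17 beside 0.01 for all genes. Without H3 and H4, 12 were, with a median of 0.054 beside 0.14 for all genes. With all libraries the groups did not overlap for 1 lower and 2 higher targets, where 2.31% of all genes were lower and 2.73% higher. Without H3 this held for 2 lower and 3 higher targets, where 2.62% of all genes were lower and 6.46% higher. Without H3 and H4 it held for 3 lower and 5 higher targets, where 4.19% of all genes were lower and 20.3% higher, so the share of higher targets was near that of all genes.

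**Figure D4:**
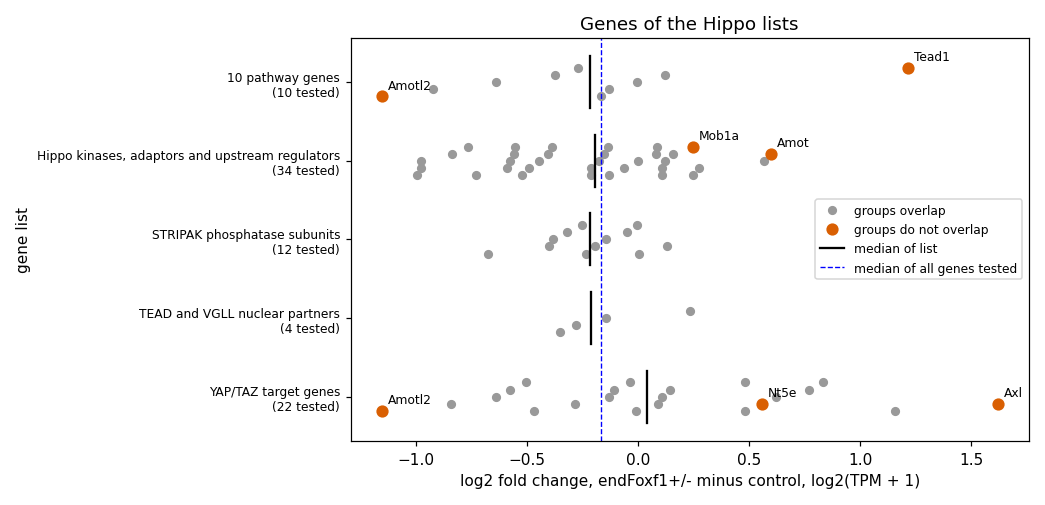
Log2 fold change of each tested gene in the 10 pathway genes and 4 further lists, with genes whose groups do not overlap in orange and named, the black bar at the median of each list and the dashed line at the median of all 14964 genes (-0.17). The medians of the first 4 lists lie between -0.22 and -0.19 and that of the YAP/TAZ targets at 0.04, with Axl at 1.62 and Amotl2 at -1.16.

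The genes whose log2(TPM + 1) followed 3 of the pathway genes most closely over the 8 libraries were also listed. For Stk4 these were Lrrc71, Rps6ka1, Trim5, Sh3gl2 and Pink1, with Pearson correlations of 0.982 to 0.990, and of 0.832 to 0.924 over the 6 libraries without H3 and H4. For Yap1 they were Aox1, Nek1, Katnal2, Hibch and Nup210l (0.969 to 0.975), and for Wwtr1 they were Tas1r3, Kat7, Zfp788, Ube2d1 and Olfr228 (0.989 to 0.997). None of the 15 was another gene of the set. All points share the distance of H3 and H4 from the other libraries, and the best of all genes tested is high by selection, so these are descriptions without a test.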

How the data were processed

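RNA-seq was analysed for CD45-CD31+ cells of 4 control and 4 endFoxf1+/- tumors. The authors deposited 1 table per library with TPM values per gene symbol, each summing to 1000000. The submitters' processing notes name TopHat, Cufflinks, Subread, DESeq2, GRCm38 and mm10; the tool that made the TPM values and the annotation are not given in the sources used here. No counts were used, so depth and counting error are unknown. Per library, 13419 to 15305 genes reached a TPM of 1.

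Filtering kept genes that reached a TPM of 1 in 4 or more libraries. Differences in log2(TPM + 1) were tested with limma 3.58.1 (R 4.3.3, empirical Bayes with trend) and Benjamini-Hochberg adjustment at 0.05, without covariates, and again after subtracting the mean of 20 endothelial markers. A fold change with a pseudocount of 1 understates the change of low genes. Members, paralog ratios and list genes were also tested by two-sided exact permutation over 70 assignments, whose smallest p is 0.0286 (0.0571 for 4 against 3 libraries). Members and lists were chosen with earlier results of these data known. Besides the members and Foxf1, the named list genes are those whose groups did not overlap and the 3 with the largest absolute log2 fold change in each list, and the 5 most correlated genes for Stk4, Yap1 and Wwtr1. Of these, 2 list genes are not reported here. The library labels do not say that each is 1 mouse, so p-values measure only the spread between these libraries, which may be technical. No 2 libraries held identical values. Gene overlaps were read from GENCODE vM21 (GRCm38), promoters from RefSeq. Alternatives were other pseudocounts, filters, scalings, reference genes, sample weights and leaving out libraries.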

Additional observations from a re-analysis of the deposited data

Results flagged for a closer look

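Among 40 sets of 4 values checked (10 genes, 2 groups, 2 scales), 5 held a library whose gap to its nearest neighbor took an unusually large share of the range. In 4 of the 5 this library was H3. The rule marks about 5% of independent sets, but these sets share the same 8 libraries, so that rate is no benchmark here. Relative to the endothelial markers, Stk4 was at -0.047 in H3 and -2.88 to -2.58 in the other endFoxf1+/- libraries, and Stk3 was at -0.58 in H3 and -4.17 to -3.75 in the others. The TPM of Wwtr1 was 28.3 in H3 and 68.4 to 75.3 in the others, and that of Ankrd1 was 3.29 in H3 and 0.786 to 1.17 in the others. The fifth was a control, C3, in which Sav1 had a TPM of 58.0 beside 80.6 to 83.7 in the other controls. The part of cell composition in these values was not tested.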

How the results depend on the processing

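No setting called any of the 10 Hippo genes in limma. The TPM difference was called for 0 genes, for 148 with sample weights (H3 weighted least) and 2 (C1qa, Gm6851) without H3 and H4; relative to endothelial markers 1 gene was called, 9 with a pseudocount of 5, 17 with no filter and 27 with sample weights. Leaving out 1 library gave 0 to 1 (Rpl3-ps1, without C1) and 0 to 2 calls, and 2 to 5 Hippo genes without overlap (5 without H3, and 5 without H3 and H4, where 4.19% of all genes were lower and 20.3% higher without overlap).

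Differences in log2(TPM + 1) crossed 0 for Wwtr1 with a pseudocount of 5 (0.0013), quantile normalization (0.17), median ratio scaling (0.19), sample weights (0.30) and without H3 and H4 (0.30). The same held for Ankrd1 under quantile (0.049) and median ratio scaling (0.044), Yap1 under median ratio scaling (0.023), and Sav1 and Lats2 with sample weights (0.062 and 0.074) and without H3 and H4 (0.070 and 0.14). Median ratio scaling separated the groups of Stk4 (-0.73); it moved the median of all genes from -0.17 to -0.01, with 5 of 10 Hippo genes above 0. Without H3 and H4, where 0.133 is the smallest exact permutation p, Tead1 was at 0.46 and Amotl2 at -0.27, and the log2 ratio of Lats1 to Lats2 at -0.0036. Leaving out 1 library gave -0.41 to 0.029 for Sav1, -0.025 to 0.28 for Lats1, -0.35 to 0.062 for Yap1, -0.14 to 0.33 for Wwtr1, 0.94 to 1.47 for Tead1, -1.48 to -0.45 for Amotl2 and -0.40 to 0.020 for Ankrd1.

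Relative to the endothelial markers, sample weights turned Stk4 (-0.26), Stk3 (-0.17), Sav1 (-0.059), Yap1 (-0.12), Amotl2 (-0.25) and Ankrd1 (-0.66). Without H3 and H4 the same genes were at -0.39, -0.12, -0.0069, -0.17, -0.34 and -0.53, and Wwtr1 was at 0.22. The marker mean as a covariate gave -0.51 for Stk4, -0.18 for Stk3, -0.29 for Amotl2 and -0.46 for Ankrd1. Pecam1 alone as reference put Amotl2 at -0.11 and Wwtr1 at 1.04 with overlap, and the 10 most abundant markers put Wwtr1 at 1.23 with overlap and Tead1 at 2.45 without. Leaving out 1 library gave -0.38 to 0.56 for Stk4, -0.011 to 1.18 for Stk3, 0.57 to 1.56 for Wwtr1, -0.21 to 0.22 for Amotl2 and -0.16 to 1.67 for Ankrd1. The cause of these changes was not tested.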
